A study of Mus musculus with 6 samples.

Results

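NOVA1 and NOVA2, a pair of related splicing regulators of neurons, recognise in RNA the tetranucleotide YCAY, in which Y is U or C. Its forms are UCAU with its variant UCAC, and the same starting with C, that is CCAU with its variant CCAC. The positions that both proteins occupied on the transcripts of 2 families of synaptic surface proteins were examined: the 4 teneurins, annotated as Odz1 to Odz4, and the 3 latrophilins, annotated as Lphn1 to Lphn3. The data came from HITS-CLIP, in which ultraviolet light crosslinks a protein to the RNA it touches and the RNA recovered with the protein is sequenced. Cortex of wild-type CD1 mice at embryonic day 18.5 had been used, with 3 libraries for NOVA1 and 3 for NOVA2, and no library from mice that lack either protein was analysed here. The authors deposited 1 list of clusters per protein, each cluster being a run of overlapping unique tags found in at least 2 of the 3 libraries and holding at least 10 tags. A cluster was taken as a member if 1 nt or more of it fell within the span of one of the 7 genes, on that gene's strand, in the GENCODE annotation of the mm9 build. This gave 562 of 46579 clusters, of which 113 of 9988 were NOVA1 clusters and 449 of 36591 were NOVA2 clusters.

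Teneurins are very large single-pass proteins of the neuronal surface that guide axons to their targets and help match partner cells at synapses. Latrophilins are adhesion G protein-coupled receptors. A teneurin on one cell binds a latrophilin on the other, and latrophilins also bind the FLRT proteins, so that both families take part in the same contacts across the synapse. Their genes span long stretches of DNA, mostly intron, and several carry very short coding exons (microexons), a class of exon that is often included preferentially in neurons.

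The 7 genes had been selected on cluster counts of these lists, the 50 NOVA2 clusters of one Odz2 window among them, so cluster numbers per gene are descriptions. The tag counts are pooled over the 3 libraries of a protein, with no value per library, so no difference could be set against a spread between libraries and no p-value was computed. The tag count was not scaled to library size. The study names its threshold a peak height, so the deposited value may be the highest depth of a cluster rather than a sum of its tags, and sums of tags would then be sums of depths. Intervals in the text are 95% intervals and cover counting error only.

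The sequences below are the intron clusters with the highest NOVA2 tag count in 6 of the genes, read on the transcript strand of mm9 with YCAY in capitals. They are shown because they carry the strongest NOVA2 signal of each gene. For Odz2, whose top cluster is 524 nt wide, the 300-nt stretch richest in YCAY is given.
Odz1, chrX:40425363-40425564, minus strand, 102 tags: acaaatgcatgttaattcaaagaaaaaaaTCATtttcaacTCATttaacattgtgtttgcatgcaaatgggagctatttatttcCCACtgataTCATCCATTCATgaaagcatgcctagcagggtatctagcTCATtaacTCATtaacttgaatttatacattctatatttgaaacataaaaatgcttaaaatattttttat
Odz2, chr11:36415264-36415563, minus strand, 996 tags in the whole cluster: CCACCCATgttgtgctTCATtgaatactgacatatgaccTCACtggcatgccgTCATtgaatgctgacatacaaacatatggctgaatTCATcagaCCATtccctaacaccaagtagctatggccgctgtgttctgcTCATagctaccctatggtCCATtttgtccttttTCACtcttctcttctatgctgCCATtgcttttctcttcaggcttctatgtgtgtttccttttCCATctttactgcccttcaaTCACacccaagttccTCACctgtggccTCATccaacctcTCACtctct
Odz3, chr8:49569759-49570024, minus strand, 109 tags: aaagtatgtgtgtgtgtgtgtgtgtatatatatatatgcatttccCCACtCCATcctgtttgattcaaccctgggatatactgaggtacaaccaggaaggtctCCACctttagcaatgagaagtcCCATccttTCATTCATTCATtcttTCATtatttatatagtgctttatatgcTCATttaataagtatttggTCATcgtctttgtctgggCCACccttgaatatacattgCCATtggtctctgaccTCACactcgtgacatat
Odz4, chr7:103595839-103596015, plus strand, 133 tags: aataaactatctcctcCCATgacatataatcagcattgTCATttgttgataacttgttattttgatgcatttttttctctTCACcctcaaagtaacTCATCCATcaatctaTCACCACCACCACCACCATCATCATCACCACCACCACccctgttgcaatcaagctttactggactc
Lphn2, chr3:148482088-148482275, minus strand, 87 tags: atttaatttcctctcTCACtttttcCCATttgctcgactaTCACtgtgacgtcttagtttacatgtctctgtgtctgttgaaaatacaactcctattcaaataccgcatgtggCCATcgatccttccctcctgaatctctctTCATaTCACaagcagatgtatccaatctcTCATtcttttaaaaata
Lphn3, chr5:81513265-81513411, plus strand, 405 tags: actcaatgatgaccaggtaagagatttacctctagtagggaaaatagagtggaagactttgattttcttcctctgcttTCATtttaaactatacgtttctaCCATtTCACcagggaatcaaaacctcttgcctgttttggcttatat

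These 6 sequences differ in how YCAY was arranged. The Odz4 cluster held 17 YCAY, most of them in a run of overlapping copies, and the Odz3 cluster held 13. The Lphn3 cluster, with 405 tags against 109 in Odz3, held 3 copies. Across the 435 NOVA2 intron clusters of the 7 genes, tags and YCAY density were all but unrelated, with a Spearman coefficient of 0.058 across clusters, against 0.029 over all NOVA2 intron clusters. Clusters of a gene share libraries and local base composition, so these coefficients are descriptions.

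Odz2, which encodes teneurin-2, held the most clusters of both lists. It spans 1230 kb of chromosome 11 (chr11:35820158-37049466, minus strand) and carried 224 NOVA2 clusters with 11601 tags, all in introns, and 47 NOVA1 clusters with 1286 tags, 46 of them in introns. By the number of clusters it was in place 6 of 5248 genes with a NOVA2 cluster and in place 5 of 2970 genes with a NOVA1 cluster. Per unit of length it was high too, with 18.2 NOVA2 clusters per 100 kb, place 32 of 2546 genes of 100 kb or longer.

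Lphn3, which encodes latrophilin-3, was next with 106 NOVA2 clusters and 4298 tags over 805 kb of chromosome 5 (chr5:81449163-82254158, plus strand). Of these clusters 105 were in introns. Its NOVA2 density was 13.2 per 100 kb, place 86 of 2546. Its 21 NOVA1 clusters, 20 of them in introns, held 490 tags.

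The other teneurins had sparser clusters. Odz4 (chr7:103319754-104059603, plus strand) had 41 NOVA2 clusters and 8 NOVA1 clusters over 740 kb. Odz1 (chrX:39881043-40782303, minus strand) had 34 and 13 over 901 kb, and Odz3 (chr8:49313036-49760044, minus strand) had 25 and 4 over 447 kb. Their NOVA2 densities were 5.54, 3.77 and 5.59 per 100 kb, below the 18.2 of Odz2. Transcript levels in this tissue were not measured here, and their part in the differences between genes was not tested.

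Lphn2 (chr3:148478550-148652280, minus strand) had 14 NOVA2 clusters and 3 NOVA1 clusters over 174 kb. Lphn1 (chr8:86424004-86465853, plus strand), the shortest gene at 41.9 kb, had 5 NOVA2 clusters and 17 NOVA1 clusters. It was the only one of the 7 with more NOVA1 than NOVA2 clusters, by 3.4 to 1. Over the whole lists, 159 of 1975 genes with at least 5 clusters in both lists together (8.05%) had more NOVA1 than NOVA2 clusters.

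**Figure D1:**
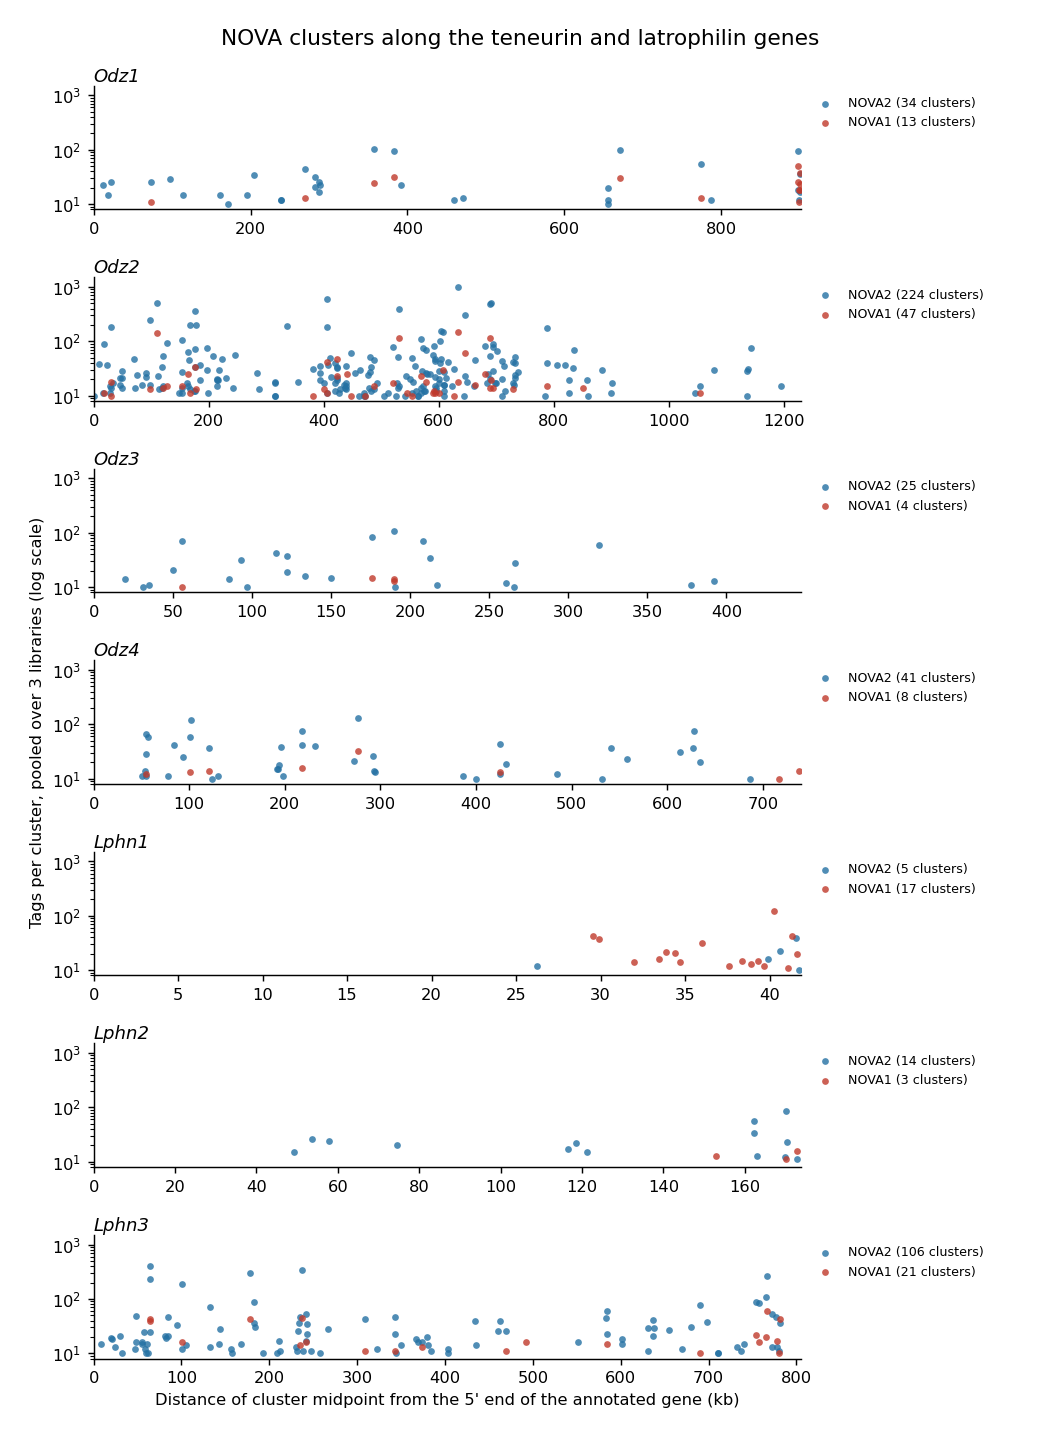
Each point is 1 cluster, placed by the distance of its midpoint from the 5' end of the annotated gene (kb, x axis, a separate scale for each gene) and by its tags pooled over 3 libraries (y axis, log scale), NOVA2 in blue and NOVA1 in red. Odz2 and Lphn3 are covered by NOVA2 clusters that reach 996 and 405 tags, whereas the NOVA1 points of Lphn1 crowd at its 3' end.

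Tags were distributed less evenly than clusters. The 7 genes held 1.13% of all NOVA1 clusters and 0.906% of their tags, and 1.23% of all NOVA2 clusters and 1.49% of their tags. The NOVA2 list had 3.66 times as many clusters and 4.30 times as many tags as the NOVA1 list, and in the 7 genes these ratios were 3.97 and 7.05. Odz2 alone held 11601 of the 19470 NOVA2 tags and 1286 of the 2760 NOVA1 tags of the 7 genes, so it weighs most in the 7.05. The mix of classes differs too, with 73.5% of NOVA1 members but 40.3% of the whole NOVA1 list in introns. The median member cluster had 15 tags in NOVA1, against 16 in the whole list, and 21 tags in NOVA2, against 18. Many members lay just above the threshold of the lists, with 29 NOVA1 and 99 NOVA2 clusters at 10 to 12 tags, and clusters below 10 tags are not in the lists. The clusters were narrow, with a median width of 130 nt in NOVA1 and 118 nt in NOVA2.

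In steps of 25% of its span from the 5' end, Odz2 held 65, 101, 50 and 8 NOVA2 clusters. Counting the gaps between exons of protein-coding transcripts from the 5' end, intron 4, which is 479 kb long, held 140 NOVA2 and 33 NOVA1 clusters. Intron 2 (201 kb) held 46 and 9, and intron 1 (90.2 kb) held 19 and 3. Introns 3 (79.0 kb) and 5 (84.7 kb) held 6 and 5 NOVA2 clusters and no NOVA1 cluster. The 3' 25% of the gene held 8 of the 224 NOVA2 clusters and 1 of the 47 NOVA1 clusters. Its 5 longest introns make up 76.6% of its intron length and held 216 of the 224 NOVA2 clusters.

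With each chromosome cut into fixed windows of 100 kb, the densest window of Odz2 lay inside intron 4 (chr11:36400001-36500000) and held 50 NOVA2 clusters with 2981 tags and 12 NOVA1 clusters with 363 tags, all in the intron. The densest fixed window of Lphn3 (chr5:81600001-81700000) held 23 NOVA2 clusters with 1171 tags and 4 NOVA1 clusters. When the windows were slid along the gene, the most NOVA2 clusters in 100 kb were 52 in Odz2, 27 in Lphn3, 14 in Odz4, 11 in Lphn2 and 10 in both Odz1 and Odz3.

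The 5 strongest NOVA2 clusters of Odz2 lay in introns 2 and 4. The top cluster (chr11:36415187-36415710) had 996 tags, was 634 kb from the gene start and overlapped 2 NOVA1 clusters of 148 and 18 tags. The NOVA1 cluster of 148 tags was the strongest NOVA1 member of all 7 genes. The next had 588, 505, 499 and 486 tags, and the NOVA1 clusters overlapping them had 42, 140, 19 and 116 tags. Among these 5 clusters, picked after their values were seen, the ranks of NOVA1 and NOVA2 tags ran only partly in step. The top cluster was first in both, but 2 NOVA2 clusters less than 1 kb apart, with 499 and 486 tags, overlapped NOVA1 clusters of 19 and 116 tags.

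In Lphn3 the 4 strongest NOVA2 clusters had 405, 346, 303 and 261 tags, and all were matched by NOVA1 clusters, with 42, 45, 42 and 61 tags. They were spread over the gene, at 64.2, 238, 178 and 766 kb from its start. The strongest NOVA2 clusters of Odz1, Odz3, Odz4 and Lphn2 were weaker, at 102, 109, 133 and 87 tags, and each of them was matched by a NOVA1 cluster too. The second cluster of Odz4 (chr7:103421362-103421450, intron), with 121 tags, had no NOVA1 cluster over it.

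NOVA2 clusters often had a close neighbour. In the 7 genes 55.2% of NOVA2 clusters (50.6 to 59.8) had another NOVA2 cluster within 1 kb, with 62.5% in Odz2 and 58.5% in Lphn3 but 24.0% in Odz3. Over the whole NOVA2 list it was 46.4%, and the 7 genes had been selected on their cluster numbers. The share for NOVA1, whose list is shorter, was 36.3% (28.0 to 45.5), beside 43.6% of its whole list, with 15 of 17 clusters in Lphn1 and 27.1% without that gene. The introns with clusters were mostly long. Of 70 introns of 10 kb or longer in the 7 genes, 41 held a NOVA2 cluster, and of the 140 shorter ones 16 did.

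**Figure D2:**
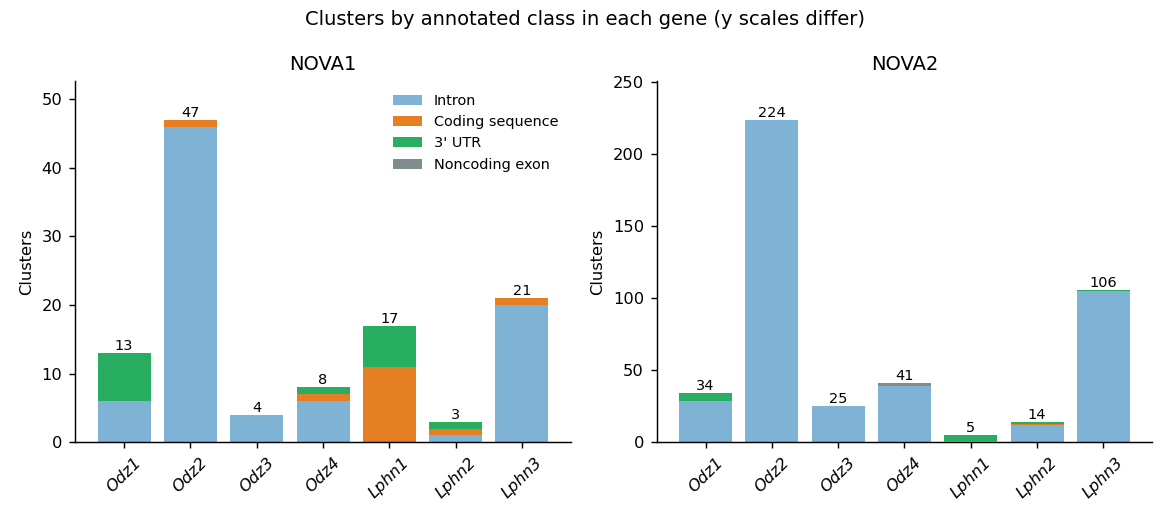
Bars give the number of clusters in each gene (y axis, a separate scale for each protein), stacked by annotated class: intron, coding sequence, 3' UTR and noncoding exon. Intron makes up nearly all of the NOVA2 bars, and coding sequence and 3' UTR make up the whole NOVA1 bar of Lphn1.

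Introns took most clusters of both proteins in these genes. The share was 96.9% of NOVA2 clusters (94.8 to 98.1), against 74.6% of the whole list. For NOVA1 it was 73.5% (64.6 to 80.7), against 40.3% of the whole list. These contrasts are descriptions, since the denominators differ. Every member was in an intron or an exon of its gene, whereas the whole lists also hold clusters in neither. Exons held 14.3% of all NOVA2 and 48.1% of all NOVA1 clusters. The member genes are also mostly long and rich in intron, and no share over genes of like length was computed. Within these genes the NOVA1 intron share depended on which gene was counted: it was 56.1% without Odz2 and 86.5% without Lphn1. Of 72 NOVA1 clusters in the teneurins 62 were in introns and 10 in exons, and of 41 in the latrophilins 21 were in introns and 20 in exons.

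Lphn1 held 17 of these 20 exon clusters. Its NOVA1 clusters comprised 11 in coding sequence and 6 in the 3' UTR, with none in an intron. None of the 11 coding clusters overlapped a NOVA2 cluster, whereas 329 of all 864 NOVA1 coding clusters did (38.1%). They had between 12 and 43 tags, and 2 adjoining clusters, with 43 tags (chr8:86453387-86453679) and 38 tags (chr8:86453680-86454156), headed them. The sequence of the first, on the plus strand with YCAY in capitals, is shown as the strongest coding cluster of the 7 genes.
Lphn1 coding cluster: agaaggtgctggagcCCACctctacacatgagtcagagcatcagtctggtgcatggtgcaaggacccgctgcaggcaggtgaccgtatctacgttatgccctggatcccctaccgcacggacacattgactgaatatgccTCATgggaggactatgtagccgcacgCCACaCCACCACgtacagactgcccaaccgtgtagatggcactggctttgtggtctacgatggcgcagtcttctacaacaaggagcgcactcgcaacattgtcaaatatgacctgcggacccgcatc

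This coding cluster held 5 YCAY in 293 nt. Over the 11 coding clusters of Lphn1, YCAY was 1.15 times (0.805 to 1.63) as frequent as in flanks 200 to 500 nt away that lay outside clusters, whereas in all 864 NOVA1 coding clusters it was 1.79 times (1.73 to 1.86). The strongest NOVA1 cluster of Lphn1 was 779 nt wide, in the 3' UTR (chr8:86463891-86464669), with 124 tags and 18 YCAY. It overlapped 2 NOVA2 clusters of 16 and 23 tags. A second 3' UTR cluster, with 42 tags (chr8:86465199-86465475), overlapped none.

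Of the 17 NOVA1 clusters of Lphn1 2 overlapped a NOVA2 cluster, or 11.8% (3.29 to 34.3), beside 67.3% of all 4805 NOVA1 exon clusters. The mix of classes was unlike: 11 of the 17 were coding, whereas 3765 of the 4805 were in 3' UTRs. Of all NOVA1 clusters in 3' UTRs 73.9% were shared, and of those in coding sequence 38.1%. In the other direction, 4 of its 5 NOVA2 clusters overlapped a NOVA1 cluster, all 4 in the 3' UTR. The remaining one was in an intron beside a microexon and is described with the microexons.

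Odz1 was the other gene with many 3' UTR clusters. It had 7 NOVA1 and 5 NOVA2 clusters there, and 5 of the NOVA1 clusters overlapped 1 NOVA2 cluster each. The strongest pair had 51 NOVA1 tags (chrX:39884345-39884580) and 93 NOVA2 tags. The other 4 pairs had 37 and 36, 25 and 18, 18 and 17, and 18 and 12 tags, NOVA1 first. Raw tags were thus closer to each other in the 3' UTR of Odz1 than in its introns, where every pair had more NOVA2 tags. The median was 0.944 NOVA2 tags per NOVA1 tag at the 5 pairs in the 3' UTR and 3.33 at the 6 intron pairs. These tags are not scaled to depth, and the whole NOVA2 list holds 4.30 times as many tags as the NOVA1 list. That 4.30 counts only tags in clusters of at least 10 tags, so it is not the ratio of the depths of the libraries.

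The remaining exon clusters were few and weak. Odz2, Odz4, Lphn2 and Lphn3 had 1 NOVA1 cluster each in coding sequence, with 14, 10, 13 and 16 tags, and none of the 4 overlapped a NOVA2 cluster. In all, 0 of the 15 NOVA1 coding clusters of the 7 genes were shared (interval up to 20.4%), beside the 38.1% of the whole list. Of these 15, 11 were in Lphn1, and clusters of 1 gene are not independent, so the value mostly describes that gene. Odz4 also had 1 NOVA1 cluster of 14 tags in the 3' UTR and 2 NOVA2 clusters in noncoding exons, one of 36 tags and one at a microRNA that is described last among the clusters. Odz3 had no cluster in an exon in either list. Lphn3 had 1 NOVA2 cluster of 53 tags in an annotated 3' UTR (chr5:82221719-82222003) with 10 YCAY and no NOVA1 cluster, and Lphn2 had 1 NOVA2 cluster of 13 tags in coding sequence.

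The clusters shared between the lists were counted next, to see how far both proteins occupied the same positions. Of the 113 NOVA1 clusters 89 overlapped a NOVA2 cluster, or 78.8% (70.3 to 85.3), beside 80.1% of the whole NOVA1 list. Of the 449 NOVA2 clusters 93 overlapped a NOVA1 cluster, or 20.7% (17.2 to 24.7), beside 22.1% of the whole NOVA2 list. The interval of each share held the value of its whole list. The NOVA1 share was 68.2% without Odz2 and 90.6% without Lphn1. In introns 81 of 83 NOVA1 clusters were shared, or 97.6% (91.6 to 99.3), beside 95.5% of all NOVA1 intron clusters. The 2 exceptions were in Odz2. For NOVA2 it was 83 of 435 intron clusters, or 19.1% (15.7 to 23.0), beside 14.1% of all NOVA2 intron clusters.

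Whether a NOVA2 cluster was shared went with its tags. Of NOVA2 members with 10 to 19 tags 6.05% were shared, at 20 to 49 tags 16.9%, at 50 to 99 tags 55.1%, and at 100 tags or more 87.1%, or 27 of 31. The whole list gave 8.42%, 22.8%, 55.9% and 88.2%. The median was 62 tags in shared and 17 tags in unshared NOVA2 members. The NOVA1 list holds fewer tags and has the same threshold, so a NOVA2 cluster without a NOVA1 partner may have had NOVA1 tags below 10. The highest unshared NOVA2 member, in Odz2, had 194 tags.

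Positions held by exactly 1 cluster of each list allow tags to be compared at the same site. There were 76 such pairs in the 7 genes, of 6770 in all. The log2 ratio of tags, NOVA1 over NOVA2, had a median of -2.07 (-2.32 to -1.77) at the 70 intron pairs, that is 4.21 NOVA2 tags per NOVA1 tag, and 66 of the 70 had more NOVA2 tags. Over all 3452 intron pairs the median was -2.04 (-2.08 to -2.00) and 3357 had more NOVA2 tags, so the members did not stand apart from other introns. The medians were -2.25 over 36 pairs in Odz2, -2.11 over 6 in Odz4, -2.03 over 20 in Lphn3 and -1.73 over 6 in Odz1.

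The spread between positions was wide. The ratio ran from -4.71 to 0.39 among the intron members, and its lower end, the Odz2 pair of 19 NOVA1 and 499 NOVA2 tags, was also the lowest of all 3452 intron pairs. The 6 pairs in 3' UTRs, 5 in Odz1 and 1 in Lphn2, had a median of 0.28 (-0.87 to 0.58), and all 2146 pairs in 3' UTRs had a median of -0.40. Of the 6 pairs 1 had more NOVA2 tags, beside 1388 of all 2146. Since 5 of the 6 lie in the 3' UTR of Odz1, this count mostly describes that gene. Across the 76 pairs the Spearman coefficient between NOVA1 and NOVA2 tags was 0.504, as a description, since all pairs come from the same pooled libraries.

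**Figure D3:**
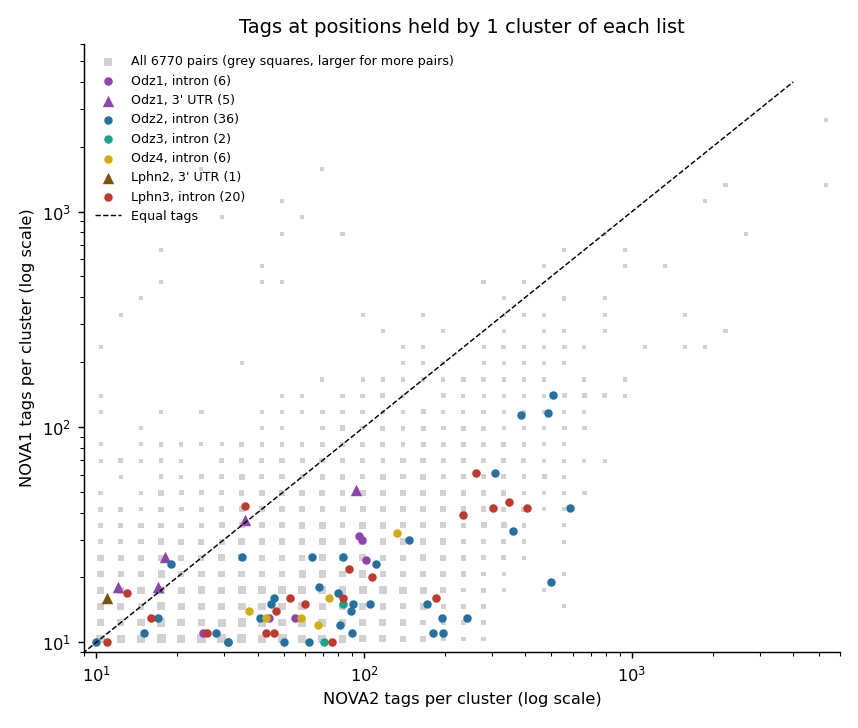
Each coloured symbol is a position held by 1 NOVA1 and 1 NOVA2 cluster of a teneurin or latrophilin gene, with NOVA2 tags (x axis) and NOVA1 tags (y axis), both on log scales, circles for introns and triangles for 3' UTRs; grey squares show all 6770 pairs and the dashed line marks equal tags. Of the 70 circles 66 lie below the line, and 5 of the 6 triangles lie on or above it.

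YCAY was searched on the transcript strand, counting overlapping copies. In NOVA2 clusters of the 7 genes it started at 40.4 of 1000 positions, against 17.5 of 1000 in the flanks, a fold of 2.32 (2.20 to 2.43), and the whole list gave 2.44. In NOVA1 clusters it started at 39.3 of 1000, against 18.8, a fold of 2.09 (1.90 to 2.30), and the whole list gave 2.14. The fold was lower in exon clusters of NOVA1, at 1.20 (0.969 to 1.49), than in intron clusters, at 2.62 (2.35 to 2.92). Shared and unshared NOVA2 intron clusters had folds of 2.38 (2.15 to 2.63) and 2.29 (2.16 to 2.43), with intervals that overlapped.

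At least 1 YCAY was present in 434 of the 435 NOVA2 intron clusters, and at least 3 in 83.4%, against 85.1% of all NOVA2 intron clusters. The tetramers most raised over flanks in these 435 clusters were UCAU, at a log2 ratio of 1.63, CAUC at 1.58 and CAUU at 1.22. In the 83 NOVA1 intron clusters they were CAUC at 1.89, UCAU at 1.75 and UUCA at 1.44. The first of these NOVA2 tetramers is a YCAY itself, and the others share 3 letters in a row with one.

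**Figure D4:**
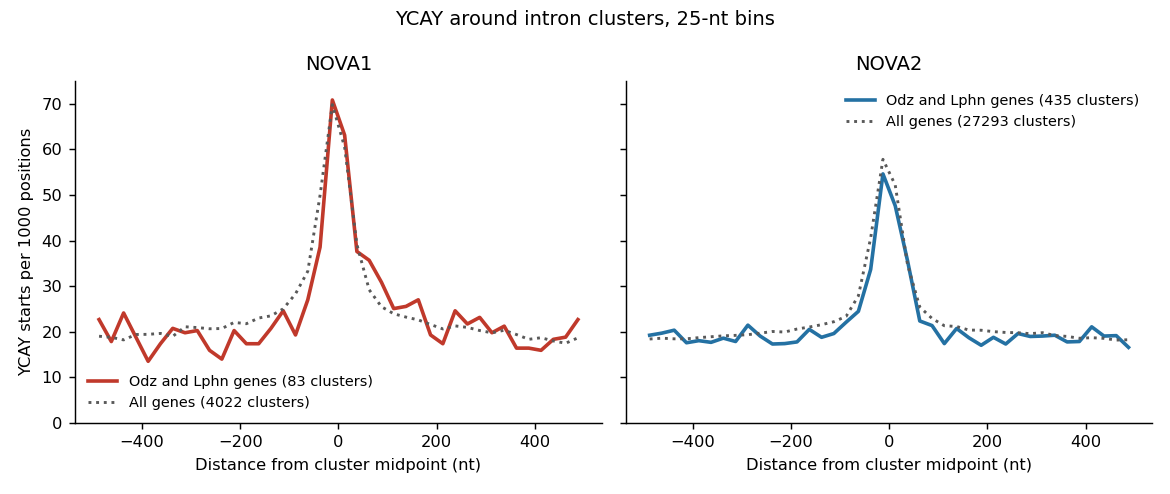
Lines give YCAY starts per 1000 positions (y axis) in bins of 25 nt by distance from the midpoint of intron clusters (x axis, nt), for the teneurin and latrophilin genes (solid) and all genes (dotted), NOVA1 left and NOVA2 right. Solid and dotted lines peak together at the midpoint, at 70.8 and 54.6 per 1000 in the 7 genes, and return to about 20 per 1000 beyond 200 nt.

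The genes differed in YCAY content. NOVA2 clusters of Odz3 and Odz4 had folds of 3.35 (2.75 to 4.07) and 3.02 (2.60 to 3.52), above those of Odz2, at 2.13 (1.98 to 2.30), and Lphn3, at 2.22 (1.99 to 2.47). The intervals of the first pair did not overlap those of the second, but they count each YCAY as independent, although copies can come in runs. In Odz3 1 cluster of 154 nt (chr8:49704252-49704405) held 34 of the 177 YCAY of its NOVA2 clusters. The fold without it was not computed, so the difference is a description. Odz1, with the fewest NOVA2 clusters per 100 kb, had a fold of 2.23 (1.87 to 2.66), and its interval overlapped that of Odz2.

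NOVA is known to set exon use from sites close to the regulated exon, so clusters near exons were listed. Of the 435 NOVA2 intron clusters 14 lay within 500 nt of an exon of a coding transcript, or 3.22% (1.93 to 5.33), against 9.74% of all NOVA2 intron clusters. For NOVA1 it was 2 of 83, or 2.41% (0.663 to 8.37), against 11.6%. By family it was 6 of 317 in the teneurins (1.89%, 0.870 to 4.07) and 8 of 118 in the latrophilins (6.78%, 3.48 to 12.8), with intervals that overlapped. The median distance to an exon was 85.0 kb in Odz2, 15.5 kb in Lphn3 and 3.72 kb in Lphn2, and it moves with intron length. Of the 14 NOVA2 clusters 9 were downstream of their exon, 3 upstream and 2 overlapping it. The shares by side over all NOVA2 intron clusters near an exon were not computed, so these counts are descriptions.

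Cassette exons, which lie wholly inside an intron of another transcript of the gene, and internal coding exons of 30 nt or shorter were then considered jointly. There were 29 such exons in the 7 genes. A NOVA2 cluster lay within 500 nt of 9 of them and a NOVA1 cluster within 500 nt of 2. By family, NOVA2 clusters were near 2 of 11 exons in the teneurins and 7 of 18 in the latrophilins. The share over all such exons of the annotation was not computed, so these counts are descriptions and cannot show whether the 7 genes stand apart. Exons of 1 gene can lie near the same cluster, and the 9 exons include 2 pairs of this kind, in Lphn2 and Lphn3.

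Lphn1 had one such exon with a cluster right after it. A 15-nt exon (chr8:86450161-86450175, plus strand) was followed 18 nt downstream by a NOVA2 cluster of 54 nt with 12 tags, the only intron cluster of Lphn1. The stretch chr8:86450141-86450246 is printed from 20 nt before the exon to the end of the cluster, with the exon in capitals, since it joins a microexon and its cluster. The cluster holds 4 YCAY, and 19 YCAY start within 500 nt downstream of the exon, against 4 within 500 nt upstream. An 18-nt exon of Lphn1 (chr8:86461815-86461832) had no NOVA2 cluster near it but lay between 2 NOVA1 coding clusters of 12 and 15 tags.
Lphn1 microexon and cluster: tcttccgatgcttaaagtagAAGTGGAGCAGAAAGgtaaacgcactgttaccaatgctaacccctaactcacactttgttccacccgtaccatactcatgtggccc

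Lphn3 has an exon of the same length with 13 of 15 identical bases (chr5:81938749-81938763, plus strand). The nearest NOVA2 cluster to it was 19792 nt away. Both exons are shown to set the copy with a cluster beside it against the copy without one.
Lphn1 exon of 15 nt: aagtggagcagaaag
Lphn3 exon of 15 nt: aagtggaacaaaaag

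Lphn2 has a 27-nt exon (chr3:148490176-148490202, minus strand) with a pair of NOVA2 clusters. One, of 34 tags (chr3:148490068-148490192), begins inside the exon and runs into the intron after it, and the other, of 55 tags (chr3:148489871-148490044), starts 132 nt downstream of the exon. Neither overlapped a NOVA1 cluster. Within 500 nt downstream of this exon 17 YCAY start, against 3 upstream. The 27-nt exon of Lphn3 (chr5:82187011-82187037, plus strand), identical at 21 of 27 bases, had its nearest NOVA2 cluster 1021 nt away. The exons and the Lphn2 clusters are given with YCAY in capitals.
Lphn2 exon of 27 nt: ctatgaagataataagCCATttatcaa
Lphn3 exon of 27 nt: ctatgaggataacagaccctTCATcaa
Lphn2 cluster over the exon: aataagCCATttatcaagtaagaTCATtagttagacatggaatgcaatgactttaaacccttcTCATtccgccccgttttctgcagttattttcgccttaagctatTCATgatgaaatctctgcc
Lphn2 cluster downstream of the exon: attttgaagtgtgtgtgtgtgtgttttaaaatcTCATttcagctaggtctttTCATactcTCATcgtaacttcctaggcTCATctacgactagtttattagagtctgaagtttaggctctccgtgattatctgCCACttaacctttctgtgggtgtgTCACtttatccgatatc

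Lphn3 had clusters at 3 other exons of this kind. A 39-nt cassette exon (chr5:82203418-82203456) had NOVA2 and NOVA1 clusters of 88 and 22 tags that both ended 342 nt upstream. An 18-nt exon (chr5:82221386-82221403) had a NOVA2 cluster of 13 tags 43 nt upstream and the 3' UTR cluster of 53 tags downstream, and a 52-nt form of this exon starts at the same base. A 31-nt cassette exon had a NOVA2 cluster of 16 tags 403 nt downstream. The strongest cluster near any exon of the 7 genes was also in Lphn3, with 303 NOVA2 and 42 NOVA1 tags, 328 and 338 nt downstream of a 66-nt exon (chr5:81626591-81626656) that is not annotated as a cassette.

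Among the teneurins, Odz4 had a NOVA2 cluster of 20 tags 270 nt downstream of a 27-nt exon (chr7:103953615-103953641, plus strand). It held 8 YCAY in 94 nt and had no NOVA1 cluster over it. Odz3 has an exon of this length that matches at 24 of 27 bases, with the nearest NOVA2 cluster 16406 nt away. A 99-nt cassette exon of Odz4 was overlapped at its 5' end by a NOVA2 cluster of 10 tags, the lowest count the list allows. YCAY within 500 nt of these exons was less uneven than at the 15-nt exon of Lphn1 and the 27-nt exon of Lphn2. Upstream first, there were 11 and 20 at the 27-nt and 14 and 15 at the 99-nt exon of Odz4. In Lphn3 there were 12 and 5 at the 31-nt, 14 and 12 at the 39-nt and 11 and 16 at the 18-nt exon. A 45-nt exon of Lphn2 near the same clusters had 4 and 6.
Odz4 exon of 27 nt: cTCACtatctggatagggtagttaaag
Odz3 exon of 27 nt: cTCACtatttggataagatagttaaag
Odz4 cluster downstream of the exon: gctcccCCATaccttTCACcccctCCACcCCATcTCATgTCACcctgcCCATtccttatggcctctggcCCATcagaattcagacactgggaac

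All 4 teneurins share a 21-nt coding exon, identical at 14 to 20 of 21 bases between pairs of genes, and none had a cluster of either list within 500 nt. The nearest NOVA2 cluster was 6549 nt away in Odz1, 13685 nt in Odz2, 4825 nt in Odz3 and 3539 nt in Odz4. The exons are shown as the short exon that the whole family has in common.
Odz1, chrX:40001571-40001591: aaacagagataccagacatag
Odz2, chr11:35868428-35868448: aaataaagagtttaaacatag
Odz3, chr8:49372487-49372507: aaataaagattttagacatag
Odz4, chr7:104003227-104003247: aaataaagatttcagacatag

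**Figure D5:**
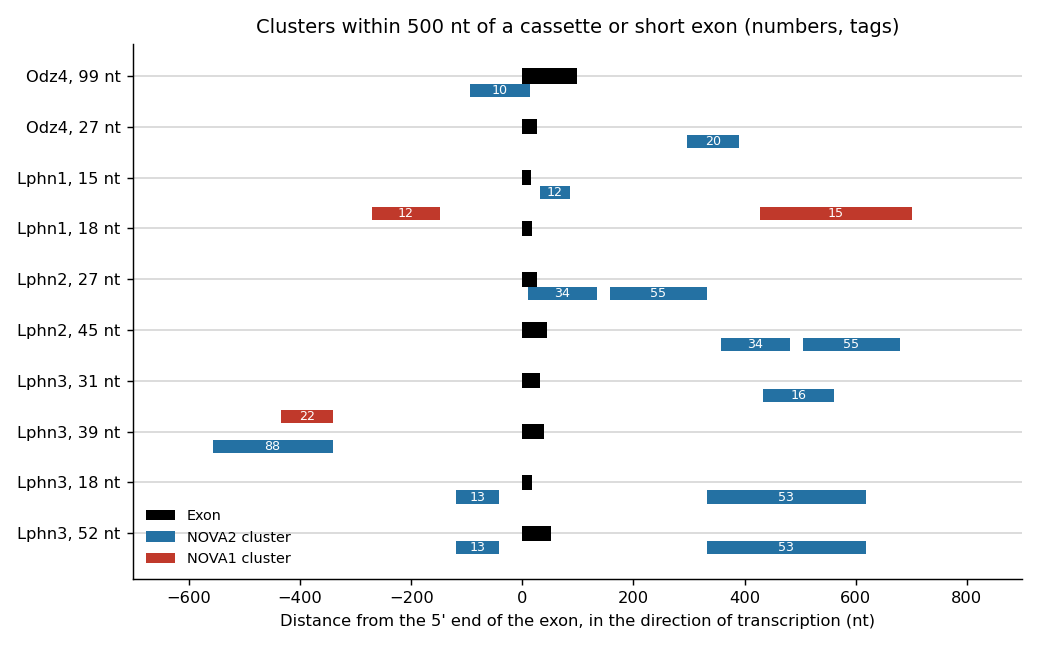
Each row is a cassette or short exon (black, its length in nt at the left) with the NOVA2 (blue) and NOVA1 (red) clusters within 500 nt of it, placed by distance from the 5' end of the exon in the direction of transcription (x axis, nt); white numbers are tags. NOVA2 clusters lie downstream of the 15-nt exon of Lphn1 and of the 27-nt exons of Lphn2 and Odz4, and upstream of the 39-nt exon of Lphn3.

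One NOVA2 cluster of Odz4 was of another kind. At 23 nt it was the narrowest NOVA2 cluster of Odz4, where the next had 36 and 46 nt and the median was 124 nt. It had 11 tags and no YCAY, and it lay inside the hairpin of the microRNA gene Mir708, which is in an Odz4 intron (chr7:103397934-103398042, plus strand). Its ends (chr7:103397960-103397982) coincided with those of the mature miR-708-5p, shown with its seed, bases 2 to 8, in capitals as RefSeq gives it.
miR-708-5p: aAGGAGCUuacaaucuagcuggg

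No cluster of either list lay on the opposite strand of any of the 7 genes. Within 10 kb beyond the annotated 3' ends there was 1 NOVA2 cluster, of 16 tags, 1.89 kb past the end of Lphn3, and within 10 kb before the 5' ends there was none.

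A list of 15 genes of proteins that bind teneurins or latrophilins, or that are related to them, gave the surroundings of both families. NOVA2 clusters were found in 11 of the 15 and NOVA1 clusters in 10, and 4 had none in either list. Over the annotation 5248 genes had a NOVA2 cluster and 2970 had a NOVA1 cluster. The 15 were picked as known partners or relatives and differ widely in length. No share over genes of like length was computed, so these counts are descriptions. Among the FLRT ligands of latrophilins, Flrt2 had 21 NOVA2 and 6 NOVA1 clusters over 93.0 kb, or 22.6 NOVA2 clusters per 100 kb, whereas Flrt1 and Flrt3 had none. Unc5d, a netrin receptor that binds FLRT proteins, had 60 and 10 clusters. Nrxn3, a neurexin gene, had 273 NOVA2 and 67 NOVA1 clusters, and Nrxn2, of the same family, had 14 and 9.

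Of the postsynaptic scaffolds that bind latrophilin tails, Shank1 had 16 NOVA1 and 12 NOVA2 clusters, Shank2 had 4 and 14, and Shank3 had 3 and 7. Shank1 and Dag1, which encodes dystroglycan, with 3 NOVA1 and 2 NOVA2 clusters, were the only genes of the list with more NOVA1 than NOVA2 clusters. Cntn6, a contactin gene, had 13 NOVA2 clusters and no NOVA1 cluster, so that none of them was shared.

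Genes most like Odz2 were sought among 305 genes with at least 20 NOVA2 clusters, by distance over 4 values: NOVA2 clusters per 100 kb, the ratio of NOVA1 to NOVA2 clusters, and the intron and shared percentages of NOVA2 clusters. The nearest were Grik2, Lrrc7 and Grin2b, with 17.7, 19.6 and 17.6 NOVA2 clusters per 100 kb and 19.7%, 19.1% and 19.2% of them shared, beside 18.2 and 20.5% in Odz2. Grik2 and Grin2b encode glutamate receptor subunits and Lrrc7 a postsynaptic scaffold. Lphn3 was in place 14 of this order and Odz1, the teneurin with the highest shared percentage at 32.4%, in place 263.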

How the data were processed

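Cortex of wild-type CD1 embryos (E18.5) was used for HITS-CLIP of NOVA1 (3 libraries) and NOVA2 (3 libraries). The authors used mm9 for alignment with Novoalign (version not given in the sources used here) and removed PCR duplicates. They kept clusters with tags in at least 2 of 3 libraries and at least 10 tags. The deposited count of each cluster is pooled over the libraries of a protein and not scaled to library size, and the lists do not give the depth of a library. NOVA2 libraries were the deeper ones, and a fixed threshold admits more clusters from deeper libraries.

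Clusters were classed by the GENCODE vM1 feature that covered most of their nucleotides, in the order coding sequence, 3' UTR, 5' UTR, noncoding exon, intron. Shares carry Wilson intervals, ratios of motif rates exact conditional binomial intervals, and medians intervals from order statistics. YCAY flanks were 200 to 500 nt from either end of a cluster, outside all clusters of that list. Positions count from 1, and 0 clusters ended past a chromosome end of the NCBIM37 genome, which is mm9. MicroRNA sequence came from RefSeq (GRCm38.p6), of which no coordinates were used. Overlap and motif counting were tested on simulated data, with 250 of 250 overlaps, 657 of 657 motifs and 9 of 9 classes recovered. Python 3.11.15, pandas 2.3.3, SciPy 1.17.1 and pysam 0.24.0 were used.

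The members and all gene lists were chosen with earlier results of these data known. The text covers all 7 genes, the strongest cluster of each list, the densest 100 kb window, exon clusters, clusters within 500 nt of a cassette or short exon, 15 partner genes (of which some items are not reported here), and the 3 genes most like the member with most NOVA2 clusters. The strongest 5 clusters of Odz2, the strongest 4 of Lphn3, the second of Odz4, the Mir708 cluster and the cluster beside the 66-nt exon were chosen after their values were seen. Alternative tag thresholds, overlaps, classes, flanks, motifs, distances and windows were tried.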

Additional observations from a re-analysis of the deposited data

How the results depend on the processing

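Of 49 values from alternative settings for 11 results, 33 stayed within the counting interval of the reported value, or within 1.5 times a count, 16 moved further and 0 changed direction. Only the YCAY folds and the log2 tag ratio have a direction that could change, since counts and percentages have none. Raising both lists to 20 tags left 38 NOVA1 and 234 NOVA2 clusters in the 7 genes and a NOVA2 shared percentage of 12.8. Reducing the NOVA2 list to its 9988 clusters with most tags, which gives both lists the same number of clusters, left 147 NOVA2 clusters, with 65.5% of NOVA1 and 50.3% of NOVA2 clusters shared. Leaving out genes was chosen after seeing the data. Without Odz2, 68.2% of NOVA1 clusters were shared and 56.1% of NOVA1 and 93.8% of NOVA2 clusters were in introns. Without Lphn1, 90.6% of NOVA1 clusters were shared and 86.5% were in introns. The YCAY fold of NOVA1 was 2.91 when intron clusters were set against other intron sequence of the same genes, and that of NOVA2 was 2.66 for UCAY and 2.70 for YCAU. The percentage of NOVA2 intron clusters near an exon was 1.84 within 200 nt and 5.52 within 1000 nt. The densest window held 52 clusters with sliding windows and 42 after clusters closer than 50 nt were merged. No paired analysis was possible because the deposited counts join the libraries of a protein, and so no library could be left out. The shared percentages depend on the depth of both lists, since a position under 10 tags in one list counts as unshared.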
